A study of Mus musculus with 18 samples.

Results

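Dnase2b, Bnip3, Bnip3l, Pla2g16, Tdrd7 and Caprin2 are 6 genes with roles in the clearing of organelles from lens fibre cells or in the RNA granules of these cells. They were chosen by symbol, for these roles, from the 40800 Ensembl genes of the deposited count table. Earlier results of these data were known when the choice was made. All 6 passed the filter on low counts that left 13938 genes for testing. RNA was sequenced from pooled lenses of C57BL/6J mice, with 3 libraries in each of 6 groups. In the Cryaa-R49C line the mice were 2 days old and were wild-type (WT), heterozygous (Cryaa-R49C-het) or homozygous (Cryaa-R49C-homo) for a knock-in mutation of αA-crystallin. In the Cryab-R120G line they were 14 days old and were WT, heterozygous (Cryab-R120G-het) or homozygous (Cryab-R120G-homo) for a knock-in mutation of αB-crystallin. Both genes encode small heat shock proteins that are major components of the lens. Each line was sampled at a single age, so that line and age cannot be told apart.

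A lens fibre cell is formed when an epithelial cell elongates, fills with crystallins and then destroys its nucleus, mitochondria and endoplasmic reticulum, which leaves a clear path for light. Dnase2b encodes the acid DNase of the lysosome that degrades fibre DNA, and its transcription depends on the heat shock factor Hsf4. Bnip3 and Bnip3l (also called Nix) encode receptors of the outer mitochondrial membrane that hand mitochondria over to autophagy, and Bnip3 is a target of the hypoxia-inducible factor HIF1. Pla2g16, named Plaat3 in current annotation, encodes a phospholipase that lyses organelle membranes in the lens. Tdrd7 encodes a Tudor domain protein of RNA granules, whose loss causes cataract in humans and mice, and Caprin2 encodes an RNA granule protein that is abundant in fibre cells.

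The 6 genes lie on different chromosomes of the GRCm38 assembly. Dnase2b spans chr3:146580985-146615596 on the minus strand, Tdrd7 spans chr4:45965334-46034761 on the plus strand and Caprin2 spans chr6:148842492-148896237 on the minus strand. Bnip3 spans chr7:138890836-138909519 on the minus strand, Bnip3l spans chr14:66985239-67008877 on the minus strand and Pla2g16 spans chr19:7557459-7588545 on the plus strand. Promoters were taken from RefSeq on GRCm38.p6, where 5 of the 6 genes had an entry, with Bnip3l the exception. The 250 bases before the annotated start are shown for Dnase2b and Bnip3, because these members moved in opposite directions in the Cryaa-R49C-homo lenses and each carries a match to the motif of the factor named above. Capitals mark the match, to GAANNTTC (a short form of the heat shock element) in Dnase2b and to ACGTG or its reverse complement CACGT (the core of the hypoxia response element) in Bnip3.
Dnase2b, chr3:146615599-146615848, minus strand: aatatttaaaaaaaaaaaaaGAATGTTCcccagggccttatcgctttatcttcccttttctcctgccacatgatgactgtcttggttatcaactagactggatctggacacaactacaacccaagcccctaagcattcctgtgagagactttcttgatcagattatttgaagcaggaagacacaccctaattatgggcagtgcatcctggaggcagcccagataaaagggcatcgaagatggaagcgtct
Bnip3, chr7:138909507-138909756, minus strand: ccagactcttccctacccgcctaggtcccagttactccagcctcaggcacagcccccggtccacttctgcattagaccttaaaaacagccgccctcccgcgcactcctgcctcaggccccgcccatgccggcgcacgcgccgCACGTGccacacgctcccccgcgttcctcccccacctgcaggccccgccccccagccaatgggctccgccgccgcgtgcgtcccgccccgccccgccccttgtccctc
The Dnase2b match began 230 bases before the start, and 6.69% of the 32851 RefSeq promoter windows of this length hold one on either strand. In Bnip3 the palindrome holds 2 overlapping matches, the first beginning 108 bases before the start, and 16.6% of the promoter windows hold at least 1. Neither motif was found in the windows of Pla2g16 and Caprin2, and of the 3 Tdrd7 windows 1 held CACGT. A match describes the letters of the window and not a bound site.

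Library totals lay between 14272174 and 29639719 counts. The members were measured well above the counting floor, with between 197 and 12233 reads for a gene in a library. Crystallin genes took between 23.8% and 76.1% of the reads, and Gm42418, a transcript that overlaps ribosomal RNA, took between 2.53% and 42.6%, both extremes of Gm42418 being Cryaa-R49C-homo libraries. Of 15 fibre genes other than crystallins that were chosen to check the tissue, Lim2 was at 0 in every library and the other 14 were detected and tested. That 0 describes the counted reads, and whether the lenses lack Lim2 was not tested. Cryaa itself differed from WT by −0.76 on the log2 scale in Cryaa-R49C-homo lenses (SE 0.33, adjusted p = 0.15), which does not check the genotype, since the knock-in changes a codon and leaves the gene in place. The genotype field of the Cryab mutant libraries names the other line, and their groups were taken from the sample titles.

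In the 2-day-old Cryaa-R49C-homo lenses, Dnase2b, Pla2g16 and Tdrd7 fell against WT and Bnip3 rose, while Bnip3l and Caprin2 did not pass the threshold. In the Cryaa-R49C-het lenses and in both mutant groups of the Cryab-R120G line, none of the 6 genes passed it. Levels are CPM (read counts scaled to a common library total) after TMM scaling, which corrects those totals for genes that take up much of a library. Fold changes come from edgeR's quasi-likelihood test in 1 model of all 18 libraries, with Benjamini-Hochberg adjustment over the 13938 genes and a threshold of 0.05. RNA came from whole lenses, so fewer cells of a type and less RNA per cell cannot be told apart.

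**Figure D1:**
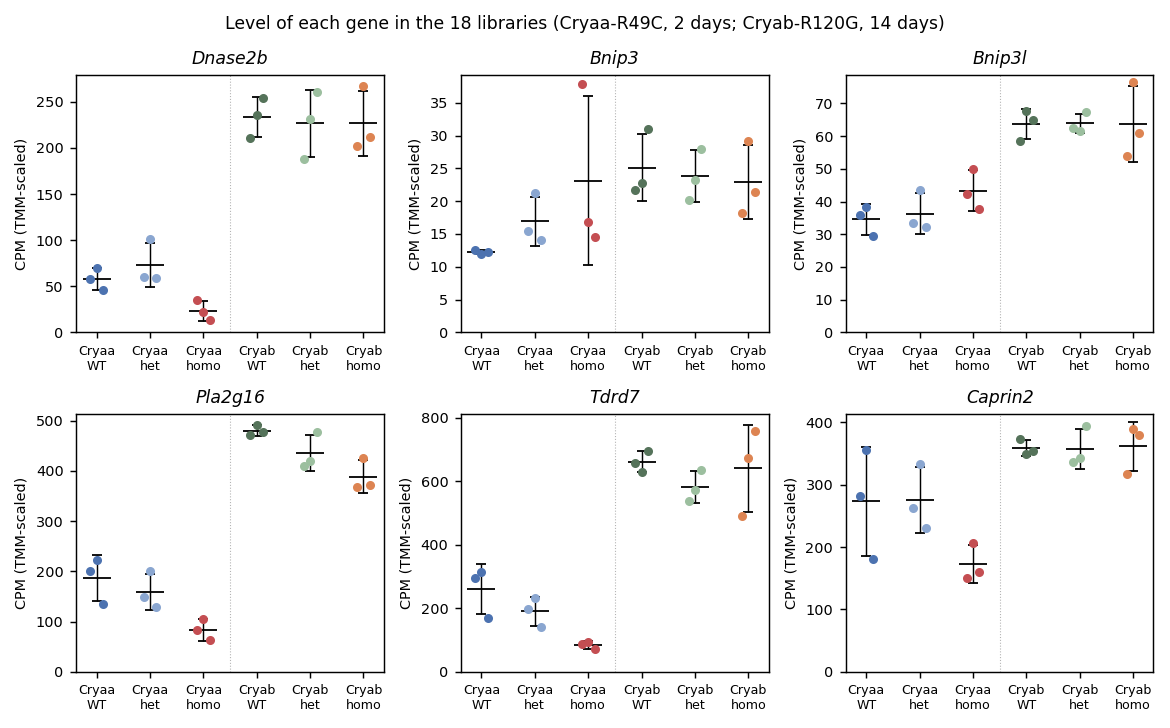
TMM-scaled CPM (vertical axis, from 0) of each gene in the 3 libraries of each group (points), with the mean and SD in black. The Cryaa-R49C-homo points of Dnase2b, Pla2g16 and Tdrd7 lie below all their WT points, 1 Bnip3 point at 37.9 stands apart, and the Cryab groups (right of the dotted line) lie close to each other for each gene.

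Among the genes of nuclear and membrane breakdown, Dnase2b was present in the 3 Cryaa WT libraries at 58.1, 69.3 and 46.4 CPM, in the het libraries at 59.8, 101.0 and 58.6 CPM, and in the homo libraries at 34.9, 21.8 and 13.2 CPM. Every homo library lay below every WT and het library. Dnase2b fell by 1.31 on the log2 scale in homo against WT (SE 0.29, adjusted p = 0.0049) and by 1.65 in homo against het (SE 0.29, adjusted p = 0.00091). The het value was 0.34 above WT (SE 0.28, adjusted p = 0.84).

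Pla2g16 had 200.4, 223.5 and 134.6 CPM in the Cryaa WT libraries, 148.1, 199.7 and 128.7 in het, and 82.1, 105.1 and 62.6 in homo. WT and het overlapped, and homo lay below both. Pla2g16 fell by 1.16 on the log2 scale in homo against WT (SE 0.23, adjusted p = 0.0021) and by 0.93 against het (SE 0.23, adjusted p = 0.016). The call against het was lost without het replicate 2 (adjusted p = 0.093) and without homo replicate 3 (adjusted p = 0.093), and with library totals alone (−0.69, adjusted p = 0.065).

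Of the RNA granule genes, Tdrd7 changed most. It had 295.5, 313.4 and 169.2 CPM in the Cryaa WT libraries, 198.3, 231.0 and 141.3 in het, and 86.0, 95.1 and 72 in homo. The het libraries lay between the other groups by their mean but overlapped WT, and the homo libraries were below all others. Tdrd7 fell by 1.62 on the log2 scale against WT (SE 0.25, adjusted p = 0.00016) and by 1.17 against het (SE 0.25, adjusted p = 0.0048). It was past the threshold against WT under all 13 alternatives of scaling, test and libraries.

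Caprin2 had 282.3, 356.2 and 181.3 CPM in WT, 263.0, 333.2 and 230.1 in het, and 149.6, 206.8 and 160.0 in homo. The lowest WT library lay within the homo range, and homo lay below all het libraries. The difference from WT was −0.67 on the log2 scale (SE 0.23) and did not pass the threshold (adjusted p = 0.072), with an interval of 2 SE on either side from −1.13 to −0.20. It passed with DESeq2 (adjusted p = 0.024), with edgeR's likelihood-ratio test (adjusted p = 0.011), with the replicate number as a block (adjusted p = 0.036) and without WT replicate 3, the lowest of that group (adjusted p = 0.017), which are 4 of 13 alternatives. It did not pass under the other 9, where adjusted p ranged from 0.062 to 0.59. With all genes of at least 1 count the adjusted p was 0.16, and with library totals alone the difference was −0.18 (adjusted p = 0.59).

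Of the mitophagy receptors among the members, Bnip3 was called and Bnip3l was not. Bnip3 had 12.6, 12.0 and 12.2 CPM in WT, 15.5, 21.2 and 14.1 in het, and 37.9, 16.9 and 14.5 in homo. All het and homo libraries lay above the WT libraries, and 1 homo library stood far above the other two. Bnip3 rose by 0.92 on the log2 scale in homo against WT (SE 0.29, adjusted p = 0.047). Without homo replicate 1 the difference was 0.35 and no longer past the threshold (adjusted p = 0.27), and the call was also lost without any single WT library (adjusted p between 0.12 and 0.14), with edgeR's likelihood-ratio test (0.58, adjusted p = 0.11), with the 6 libraries alone (adjusted p = 0.20) and with the replicate number as a block (adjusted p = 0.058). Homo replicate 1 is also the library with the lowest share of Gm42418, 2.53%, and the highest share of Cryaa, 21.0%. The part of these in the result was not tested.

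Bnip3l had 35.9, 38.4 and 29.3 CPM in WT, 33.4, 43.4 and 32.1 in het, and 42.2, 50.1 and 37.7 in homo. The 3 groups overlapped, and the homo difference from WT was 0.33 on the log2 scale (SE 0.20, adjusted p = 0.34), with an interval of 2 SE from −0.07 to 0.73. It passed the threshold only where libraries were scaled to their totals alone (0.78, adjusted p = 0.020).

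In all, 4 of the 6 members were past the threshold in Cryaa-R49C-homo against WT, 1 higher and 3 lower, where 9.79% of all genes tested were called, 4.87% higher and 4.91% lower. The groups did not overlap for 4 of the 6 members, against 24.5% of all genes. The median log2 fold change of the members was −0.91, and that of all genes 0.00. In homo against het 3 of 6 were called, all lower, with 8.32% of all genes called and 3.63% lower, and for 4 of 6 the groups did not overlap, against 22% of all genes. In het against WT, 0 of 6 were called, as were 0.00717% of all genes, that is 1 gene; 709 genes had an unadjusted p under 0.05 there, DESeq2 called 2 genes, neither tool called a member, and no member had an unadjusted p under 0.05. Bnip3 alone lay apart from WT there, higher in every het library, as 21.9% of all genes did in either direction. These shares depend on single libraries. In homo against WT 1364 genes were called, and 3092 of 14398 tested without homo replicate 1, 824 without homo replicate 2, 731 without WT replicate 1 and 775 without WT replicate 2. In homo against het 1160 were called, and 4132 without homo replicate 1 but 453 to 600 without any other single library. The homo comparisons share the 3 homo libraries, and the comparisons with WT share the 3 WT libraries. Scaling to library totals alone moved the median of all genes to 0.41 in homo against WT and the split of calls from 679 higher and 685 lower to 1884 higher and 254 lower. Under it Tdrd7 and Pla2g16 were still called lower (adjusted p = 0.0011 and 0.047), and Dnase2b was not (adjusted p = 0.076). A fit of only the 6 libraries compared called Tdrd7 alone against WT (adjusted p = 0.026), with Pla2g16 at 0.086 and Dnase2b at 0.089, and Dnase2b alone against het (adjusted p = 0.049). The log2 fold changes against WT stayed negative under all 13 alternatives for Pla2g16 (−1.36 to −0.67) and Dnase2b (−1.73 to −0.80).

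**Figure D2:**
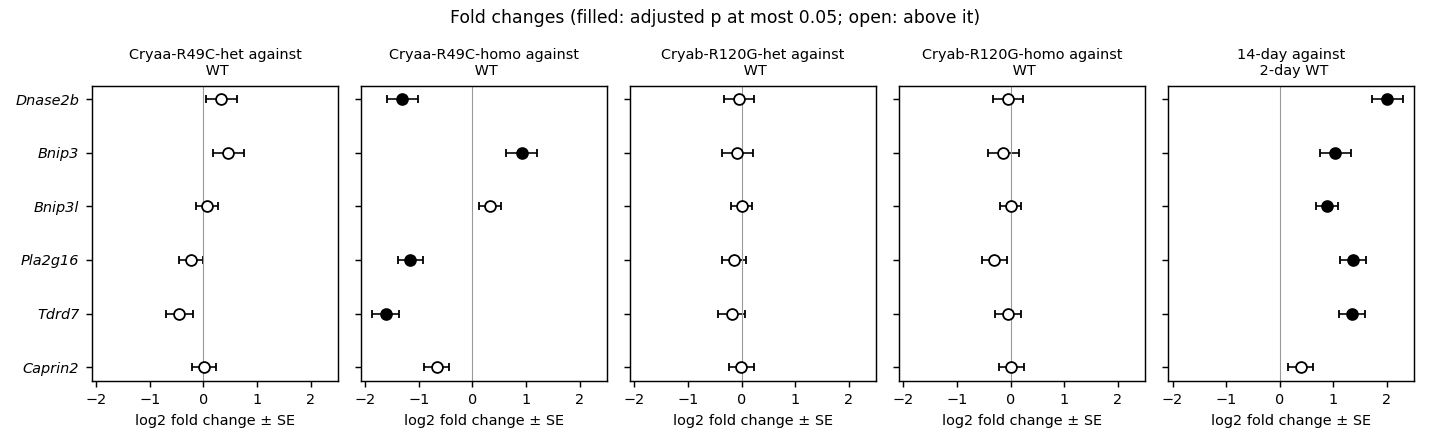
Log2 fold change (horizontal axis) of each gene in 5 comparisons, with bars of 1 SE from edgeR's quasi-likelihood fit; filled points are past the adjusted p threshold of 0.05. Only the panels of Cryaa-R49C-homo and of 14-day against 2-day WT hold filled points, 4 and 5 of 6, and all points of the Cryab mutant panels lie within 0.31 of 0.

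In the 14-day-old Cryab-R120G lenses no member passed the threshold between genotypes. Dnase2b had 210.5, 235.4 and 254.5 CPM in WT, 188.1, 231.1 and 260.3 in het, and 201.6, 266.9 and 211.3 in homo. Tdrd7 had 659.4, 629.4 and 697.0 CPM in WT, 537.6, 571.5 and 636.2 in het, and 491.4, 672.9 and 758.9 in homo. Het and homo each overlapped WT for both genes, and the homo libraries of Tdrd7 lay on both sides of WT.

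Pla2g16 had 470.8, 492.3 and 478.3 CPM in WT, 410.5, 420.2 and 477.2 in het, and 368.3, 426.0 and 372.2 in homo. It was the only member whose homo libraries lay apart from WT, all below, as 9% of all genes did in either direction. Its difference was −0.31 on the log2 scale (SE 0.23, adjusted p = 0.94), and 0.06 with library totals alone (adjusted p = 0.91).

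Caprin2 lay between 348.7 and 373.8 CPM in WT, between 335.9 and 394.9 in het, and between 317.1 and 388.8 in homo. Bnip3l lay between 58.5 and 67.5 CPM in WT, 61.7 and 67.3 in het, and 53.9 and 76.5 in homo, and Bnip3 between 21.7 and 30.9, 20.2 and 28.0, and 18.2 and 29.2 in the same groups. No member was called in het against WT (0 of 6, with 0.00717% of all genes), in homo against WT (0 of 6, with 0.0502%) or in homo against het (0 of 6, with 0%). DESeq2 called 12, 20 and 0 genes in these comparisons, none of them a member, and 532, 850 and 274 genes had an unadjusted p under 0.05, again without a member in the model of all 18 libraries. Groups did not overlap for 0 of 6 members in het against WT (10.1% of all genes) and for 0 of 6 in homo against het (6.86%). The intervals of 2 SE of homo against WT ran from −0.61 to 0.52 for Dnase2b, from −0.54 to 0.44 for Tdrd7 and from −0.40 to 0.40 for Bnip3l. In a model of the 6 Cryab WT and homo libraries alone they were narrower, from −0.33 to 0.21 for Dnase2b, from −0.37 to 0.25 for Tdrd7 and from −0.32 to 0.28 for Bnip3l. In that model Pla2g16 was at −0.32 on the log2 scale (SE 0.11) and did not pass the threshold (adjusted p = 0.99). With the replicate number as a block, 0 of 6 were again called in homo against WT.

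Whether homozygosity acted to a different extent in either line was tested directly in the same model. It was past the threshold for Tdrd7 alone, where the Cryab homo effect was 1.57 above the Cryaa homo effect on the log2 scale (SE 0.35, adjusted p = 0.013), as for 2.91% of all genes tested. For Dnase2b it was 1.27 (SE 0.40, adjusted p = 0.10), for Pla2g16 0.86 (SE 0.33, adjusted p = 0.19), for Caprin2 0.68 (SE 0.33, adjusted p = 0.32), for Bnip3l −0.32 (SE 0.28, adjusted p = 0.64) and for Bnip3 −1.05 (SE 0.41, adjusted p = 0.20). The all-gene count of this difference was 406, and 1800 of 14398 tested without Cryaa-R49C-homo replicate 1, against 244 to 448 without any other single library. Dnase2b passed without Cryaa-R49C-homo replicate 1 (adjusted p = 0.0018), with all genes of at least 1 count (adjusted p = 0.030), with DESeq2 (adjusted p = 0.040) and with the likelihood-ratio test (adjusted p = 0.0066), and the call of Tdrd7 held under all 18 alternatives, with adjusted p values up to 0.048.

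Between the WT groups, 5 of the 6 members were higher at 14 days than at 2 days, where 23.2% of all genes were called and 11.7% were higher. Dnase2b rose most, by 2.01 on the log2 scale (SE 0.29, adjusted p = 4.4e-05), and its 14-day libraries, at 210.5 to 254.5 CPM, lay above the 2-day range of 46.4 to 69.3. For 5 of 6 members the groups did not overlap, against 43.2% of all genes. Pla2g16 rose by 1.37 (SE 0.23, adjusted p = 0.00024), Tdrd7 by 1.35 (SE 0.25, adjusted p = 0.00048), Bnip3 by 1.04 (SE 0.29, adjusted p = 0.013) and Bnip3l by 0.88 (SE 0.20, adjusted p = 0.0030). Caprin2 was 0.39 higher (SE 0.23, adjusted p = 0.23), with the groups overlapping. The call of Bnip3 was lost without Cryaa WT replicate 3 (adjusted p = 0.051) and without Cryab WT replicate 3 (adjusted p = 0.079). All-gene calls of this comparison were 3237, and 1782 without Cryaa WT replicate 3.

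Other lists also differed between the WT groups, some in the direction of the members and some in the other. With TMM, 11 of 14 fibre genes were higher at 14 days and 0 lower (median 1.59 on the log2 scale), as were 15 of 16 crystallins (median 1.74) and 8 of 13 photoreceptor genes (median 4.10). All 12 macrophage and microglia genes were lower (median −3.61), with a summed level of 1.27 to 2.75 CPM at 14 days against 10.7 to 24.5 at 2 days, and of 12 vessel and mesenchyme genes 7 were lower and 1 higher. Of 10 pigment and ciliary epithelium genes 6 were lower and 0 higher. With library totals alone 4 fibre genes were higher and 2 lower, 6 crystallins were higher and 1 lower, and the 12 macrophage genes were again all lower. The part of these cells in the members' values was not tested.

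These differences depend on how the libraries are scaled. TMM factors lay between 1.20 and 2.27 for Cryaa libraries and between 0.49 and 0.77 for Cryab libraries. With library totals alone the median of all genes fell by 1.61 and 11439 genes were called lower and 157 higher, in place of 1603 and 1634. On that scale Dnase2b was 0.50 higher (adjusted p = 0.12), Bnip3, Pla2g16 and Tdrd7 were −0.53, −0.13 and −0.13 (none past the threshold), and Bnip3l and Caprin2 were lower, at −0.64 (adjusted p = 0.011) and −1.08 (adjusted p = 8.1e-05). Distances from the median of all genes moved less, with Dnase2b at 2.08 above it with TMM and 2.11 with totals alone, Tdrd7 at 1.42 and 1.49, and Caprin2 at 0.46 and 0.53.

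To compare the members with the rest of the fibre programme without any scaling, each count was divided by the summed counts of the 15 other fibre genes in the same library. Of these genes 14 were tested in Cryaa-R49C-homo against WT. As many as 10 fell and 0 rose, with a median of −1.71 on the log2 scale against 0.00 for all genes. Hsf4 is on this list and on that of denucleation regulators. Examples are Lctl (fell by 3.82, SE 0.29, adjusted p = 9.4e-09), a klotho-like protein, Lgsn (fell by 2.23, SE 0.32, adjusted p = 6.1e-05), which encodes lengsin, and Birc7 (fell by 1.94, SE 0.26, adjusted p = 3.0e-05), an inhibitor of apoptosis. Of 16 crystallins 4 fell and 0 rose, with a median of −0.71. The intermediate filament gene Bfsp2 alone made up between 41.9% and 60.6% of the sum in the Cryaa line.

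Relative to this sum, the members that fell in CPM overlapped WT in Cryaa-R49C-homo or lay above it. The log2 ratio of Dnase2b was −6.31 ± 0.13 (SD, n = 3) in WT and −6.15 ± 0.41 in homo (difference 0.17, exact two-sided permutation test p = 0.5). For Tdrd7 it was −4.18 ± 0.12 and −4.19 ± 0.32 (exact permutation p = 1), and for Pla2g16 it was −4.64 ± 0.03 and −4.23 ± 0.44 (exact permutation p = 0.1, the smallest that 3 against 3 can give).

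The other members were higher relative to the sum, with no overlap between homo and WT. With Pla2g16 this made 4 of 6 members whose groups did not overlap, where 69.1% of all genes tested did not overlap on this ratio and 68.4% were higher. The median difference of all genes was 1.53 on the log2 scale, so that 4 members lay below it and Bnip3l and Bnip3 above it. Caprin2 differed by 0.95, Bnip3l by 1.90 and Bnip3 by 2.35 on the log2 scale, each with an exact permutation p of 0.1. The differences without Bfsp2 in the sum were −0.01 for Dnase2b, −0.18 for Tdrd7 (now without overlap, exact permutation p = 0.1), 0.24 for Pla2g16, 0.77 for Caprin2, 1.73 for Bnip3l and 2.18 for Bnip3. On that ratio 63.9% of all genes did not overlap, 63% higher and 0.882% lower, with a median difference of 1.36. Against the summed crystallins instead, Dnase2b was at −0.65 and Tdrd7 at −0.82 with no overlap, Pla2g16 was at −0.41 and Caprin2 at 0.13 with overlap, and Bnip3l and Bnip3 were at 1.08 and 1.53 with no overlap. Here 30.3% of all genes did not overlap, 27.9% higher and 2.45% lower, with a median difference of 0.71.

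**Figure D3:**
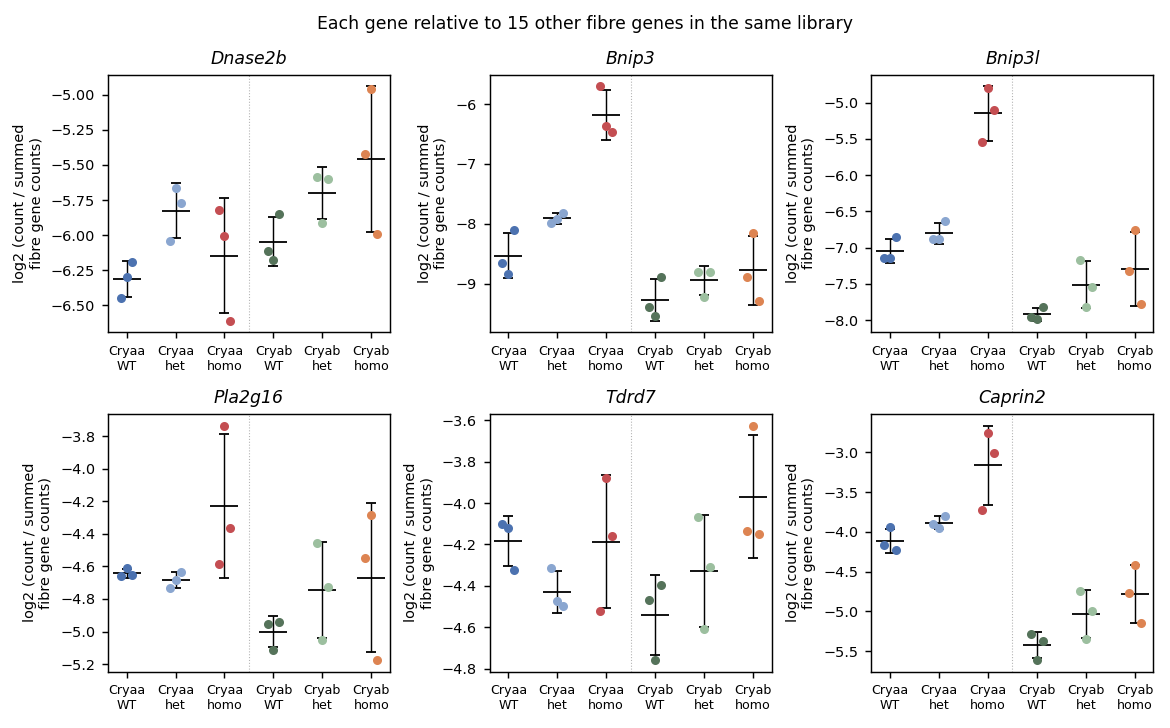
Log2 of each gene's count over the summed counts of the 15 other fibre genes in the same library (vertical axis, not starting at 0), by group, with points for libraries and the mean and SD in black. Bnip3, Bnip3l and Caprin2 stand above WT in Cryaa-R49C-homo, by 2.35, 1.90 and 0.95, whereas Dnase2b and Tdrd7 overlap WT.

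In Cryaa-R49C-het against WT the ratio of Dnase2b was 0.49 higher and that of Bnip3 0.62 higher, both without overlap (exact permutation p = 0.1), and 10.9% of all genes did not overlap. The other 4 ratios overlapped. Against the crystallins Dnase2b was 0.29 higher without overlap, Bnip3 overlapped (0.42, exact permutation p = 0.2), and Tdrd7 (−0.44) and Pla2g16 (−0.24) were lower without overlap. On that ratio 9.82% of all genes did not overlap, 2.69% higher and 7.13% lower. Without Bfsp2 in the sum Caprin2 was also apart from WT, 0.35 higher. There 10.7% of all genes did not overlap, and 9.11% were higher. At 14 days against 2 days, Dnase2b was 0.26 higher relative to the sum, and the other members were lower, from −0.36 for Tdrd7 and Pla2g16 to −1.31 for Caprin2, with no overlap for any of the 6 (exact permutation p = 0.1 each). Of all genes 88.8% did not overlap, 87.8% were lower and 0.983% higher, and the median difference was −1.85. The Dnase2b value rested on the reference. Without Bfsp2 in the sum it was −0.09, and against the mean log2 CPM of the 14 fibre genes tested it was 0.05 (exact permutation p = 0.5), both with overlap. In Cryab-R120G-homo against WT all 6 ratios were higher, by 0.33 to 0.65, and 93.1% of all genes had a positive difference. Bfsp2 was at 341 CPM in homo replicate 2 and at 2962 and 5923 in the other two, and without Bfsp2 in the sum the ratios differed by −0.01 for Pla2g16 and by 0.16 to 0.31 for the other members.

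The order of the members per gene length was read from the deposited RPKM values (reads scaled to the length of the gene and the size of the library). RPKM carries no TMM scaling, so the order was read within each group and differences between groups follow the library totals. In Cryaa WT lenses Tdrd7 was highest at 93.0 ± 6.8 RPKM (SD, n = 3), followed by Caprin2 at 50.6 ± 4.6, Pla2g16 at 41.8 ± 0.4, Dnase2b at 32.8 ± 3.2, Bnip3l at 13.1 ± 1.8 and Bnip3 at 8.2 ± 2.3. Each step of this order was larger than the SDs of the neighbours. In Cryaa-R49C-het lenses Tdrd7 (82.2 ± 8.8) and Caprin2 (61.8 ± 0.7) led again, and Dnase2b (48.3 ± 7.5) and Pla2g16 (42.5 ± 2.1) were within their SDs of each other. In Cryaa-R49C-homo lenses Caprin2 (44.7 ± 9.2) and Tdrd7 (42.9 ± 10.2) were not separated, and Pla2g16 (26.3 ± 8.5), Bnip3l (22.5 ± 5.1), Bnip3 (21.3 ± 14.5) and Dnase2b (18.9 ± 11.1) were within each other's SD, with Dnase2b now the lowest by its mean.

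In the Cryab groups the order was the same in WT, het and homo, from Tdrd7 over Dnase2b and Pla2g16 to Caprin2. In Cryab WT these were at 85.1 ± 2.0, 46.4 ± 4.9, 38.3 ± 3.1 and 23.9 ± 1.2 RPKM, above Bnip3l at 8.4 ± 1.0 and Bnip3 at 5.6 ± 1.0. In Cryab-R120G-homo Tdrd7 was at 104.7 ± 8.9 RPKM and Dnase2b at 57.8 ± 7.9, and Bnip3l and Bnip3 were last at 10.8 ± 1.4 and 6.6 ± 1.2. With TMM the log2 fold change of Tdrd7 in homo against WT was −0.05 (SE 0.24). The ratio of Bnip3l to Bnip3 per length was 0.72 ± 0.21 on the log2 scale in Cryaa WT, 0.34 ± 0.07 in het (exact permutation p = 0.1) and 0.27 ± 0.77 in homo (exact permutation p = 0.6), and 0.59 ± 0.26, 0.67 ± 0.18 and 0.72 ± 0.09 in Cryab WT, het and homo.

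**Figure D4:**
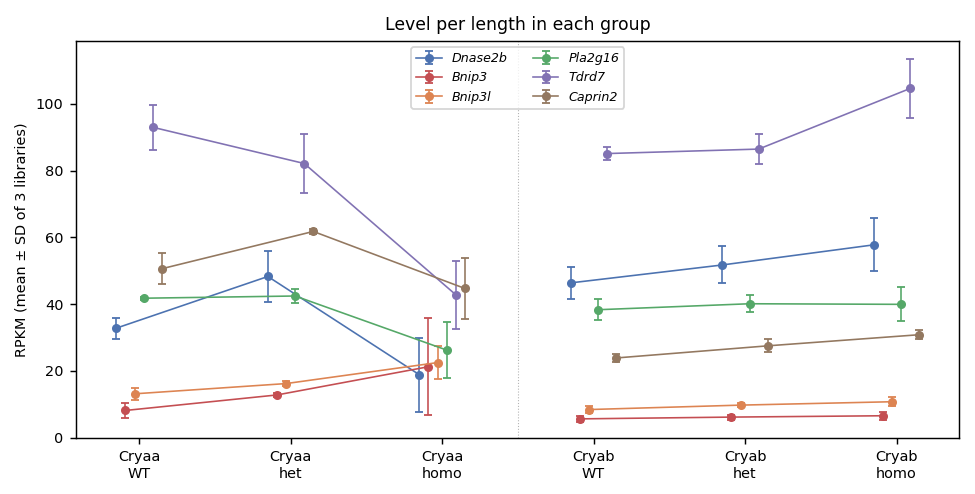
Deposited RPKM (vertical axis, from 0) of each gene in the 6 groups, as the mean and SD of 3 libraries, with lines joining the groups of a line. These values carry no TMM scaling. Tdrd7 lies above the other genes in all groups but Cryaa-R49C-homo, where it meets Caprin2, and Dnase2b has a mean of 32.8 in Cryaa WT and 18.9 in Cryaa-R49C-homo, where the highest homo library (30.8) lies above the lowest WT library (29.9).

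The other genes of these pathways were taken from 9 lists with 154 genes besides the members, of which 137 were tested. In Cryaa-R49C-homo against WT 17 of them were called (12.4%, against 9.79% of all genes), 9 higher and 8 lower, with a median log2 fold change of 0.11 against 0.00 for all genes. In homo against het 20 were called (14.6%, against 8.32%), 15 higher and 5 lower. In het against WT and in the Cryab comparisons of het with WT, homo with WT and homo with het, edgeR's quasi-likelihood test called 0 of 137, with 6, 2, 4 and 1 genes at an unadjusted p under 0.05.

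Of 15 tested genes of DNA and nuclear breakdown 1 rose and 0 fell in Cryaa-R49C-homo against WT. The gene that rose was Lmna, which encodes lamin A of the nuclear envelope (1.63, SE 0.32, adjusted p = 0.0019), at 3.82 to 4.93 CPM in WT and 12.0 to 16.2 in homo. Dnase2a, the widely expressed relative of Dnase2b, was close to the limit of detection, at 0.68 to 0.84 CPM in WT and 0.42 to 1.01 in homo. Of 12 regulators of denucleation 2 rose and 1 fell. Hsf4 fell by 0.74 (SE 0.22, adjusted p = 0.033), from 43.1 to 69.4 CPM in WT to 30.3 to 39.3 in homo, and Gata3 rose by 1.39 (SE 0.26, adjusted p = 0.0011). Pitx3, a lens transcription factor, rose by 1.16 (SE 0.34, adjusted p = 0.030).

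Of 30 tested genes of mitophagy and autophagy 2 rose and 4 fell. Sqstm1, which encodes the cargo receptor p62, rose by 2.48 (SE 0.29, adjusted p = 3.7e-06), from 19.1 to 27.3 CPM in WT to 86.9 to 157.9 in homo, with all homo libraries above all WT libraries. Atg9a, a membrane protein of early autophagosomes, fell by 1.55 (SE 0.28, adjusted p = 0.00067), and Fkbp8, a mitophagy receptor like Bnip3, fell by 0.96 (SE 0.21, adjusted p = 0.0038). Of 17 tested genes of the HIF1 list 3 rose and 0 fell. They were Ddit4, an inhibitor of mTORC1 signalling (2.29, SE 0.31, adjusted p = 2.8e-05), Pdk1, a pyruvate dehydrogenase kinase (0.91, SE 0.20, adjusted p = 0.0057), and Pgk1, a glycolytic enzyme (0.84, SE 0.25, adjusted p = 0.038). Hif1a was at −0.21 (SE 0.27, adjusted p = 0.69). In homo against het 5 of the 17 rose and 0 fell, among them Ddit4 (2.71, SE 0.31, adjusted p = 5.3e-06), the factor Epas1 (1.74, SE 0.42, adjusted p = 0.015) and Vegfa, an angiogenic growth factor (1.84, SE 0.45, adjusted p = 0.016).

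Of 10 tested phospholipases A besides Pla2g16, 0 were called by edgeR in Cryaa-R49C-homo against WT, with 2 at an unadjusted p under 0.05 and log2 fold changes from −0.69 to 0.82. The relative Hrasls was at −0.05 (SE 0.43, adjusted p = 0.96), at 12 to 28 reads in the WT and homo libraries. Of 7 tested Tudor proteins besides Tdrd7 only Snd1, a nuclease subunit that binds RNA, was called, and it rose by 1.17 (SE 0.22, adjusted p = 0.0011).

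Of 33 stress granule and P-body genes 0 rose and 1 fell, the decapping factor Dcp1b (fell by 1.19, SE 0.28, adjusted p = 0.0079). Caprin1, the relative of Caprin2, was at −0.60 (SE 0.23, adjusted p = 0.11), G3bp1 at 0.13 (SE 0.18, adjusted p = 0.73) and the P-body helicase Ddx6 at 0.11 (SE 0.22, adjusted p = 0.81). Of 11 RNA-binding proteins of the lens 1 fell, Rbm38 (fell by 1.36, SE 0.34, adjusted p = 0.012), and Celf1 (0.14, SE 0.22, adjusted p = 0.75) and Rbm24 (0.48, SE 0.25, adjusted p = 0.26) did not pass. Of 4 genes known to be altered in lenses without Tdrd7, Hspb1, a small heat shock protein, fell by 5.51 (SE 0.53, adjusted p = 1.1e-06), from 5.33 to 19.3 CPM in WT to 0.13 to 0.53 in homo, and the other 3 did not pass.

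Between the WT groups 27 of the 137 genes were called (19.7%, against 23.2% of all genes), 17 higher and 10 lower at 14 days. Hsf4 rose by 1.12 (SE 0.22, adjusted p = 0.00085), Hspb1 by 3.97 (SE 0.44, adjusted p = 3.5e-06) and the autophagosome gene Gabarapl1 by 1.88 (SE 0.29, adjusted p = 8.7e-05). Dnase2a fell by 2.22 (SE 0.75, adjusted p = 0.034), at 0 to 3 reads in the 14-day libraries. Differences between the WT groups carry the dependence on scaling given for the members. The line difference in the homo effect called 7 of the 137 (5.11%, against 2.91% of all genes), 2 higher and 5 lower in Cryab, among them Hspb1 at 5.72 (SE 0.65, adjusted p = 3.6e-05) and Sqstm1 at −2.90 (SE 0.39, adjusted p = 9.1e-05).

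The genes whose pattern was most like that of each member were found by Pearson's r of log2 CPM over the 18 libraries after the mean of each line was removed, which describes libraries that share their scaling, depth and groups. Pla2g16 was nearest to Grifin (0.97), Crygb (0.97) and Ggct (0.95), and Caprin2 to St13 (0.92), Crygc (0.92) and Dnajb2 (0.90). Tdrd7 was nearest to Spon1, Dnajb2 and Arrdc4 (0.96 each), and Dnase2b to Paics (0.97), Uox (0.96) and Dnajb1 (0.96). Bnip3 was nearest to Arl1 (0.93), Atg101 (0.90) and Yipf5 (0.90), and Bnip3l to Uspl1 (0.93), Serbp1 (0.90) and Vwa5a (0.88).

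Among the members themselves, Pla2g16 and Tdrd7 were the closest pair (r = 0.93, 18 libraries). Dnase2b, Pla2g16, Tdrd7 and Caprin2 correlated with each other at 0.76 to 0.93, Bnip3 with Bnip3l at 0.57, and the 2 receptors with the other 4 at −0.34 to 0.10.

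Markers of other cells moved with some of these groups. The summed level of 12 macrophage and microglia genes was 10.7 to 24.5 CPM in Cryaa WT and 26.5 to 51.0 in homo, with 2 of 12 genes called higher. The sum of 13 vessel and mesenchyme genes was 56.0 to 83.7 CPM in WT and 57.9 to 187.3 in homo (2 of 12 tested higher, 1 lower), and that of 11 pigment and ciliary epithelium genes was 27.6 to 45.4 in WT and 13.8 to 20.0 in homo (0 of 10 tested higher, 4 lower). In the Cryab line the pigment and ciliary sum was 15.9 to 18 CPM in WT, 28.9 to 74.5 in het and 29.4 to 44.4 in homo, without overlap between WT and either mutant group, and the transporter gene Slc6a13 alone was called, higher in homo (2.71, SE 0.49, adjusted p = 0.035). In the Cryaa line the sum of 11 lens epithelium genes was 341.1 to 355.2 CPM in WT and 312.2 to 413.7 in homo, with 0 of 10 tested genes higher and 2 lower. The photoreceptor sum of 13 genes was 13.2 to 61.3 CPM in Cryaa WT and 20.5 to 35.4 in homo. In Cryab WT it ranged from 29.4 to 1098.2 CPM, and in Cryab-R120G-homo from 278.2 to 1587.6. The erythrocyte sum of 10 genes was 15.6 to 146.2 CPM in Cryab WT and 134.0 to 451.3 in het. The sum of 12 inner retina and glia genes was 46.1 to 97.5 CPM in Cryaa WT and 35.0 to 51.0 in homo, with 0 of 12 called. Each list had at most 1 gene at 0 in all libraries of a group, among them Pdpn of the epithelium and Hemgn of erythrocytes, at 0 throughout. The part of these cells in the members' values was not tested.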

How the data were processed

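The authors prepared poly-A libraries, sequenced single reads, aligned them with STAR (2.0.4b in the submitters' processing notes) to GRCm38 with Ensembl annotation and counted unambiguous reads per gene with featureCounts 1.4.5. The deposited counts are not normalized, and the strand setting is not given in the sources used here. The deposited RPKM values are these counts divided by gene length and library size, made by the authors. The authors also deposited CPM and moderated log2 CPM tables of these libraries, which were left aside.

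The count table holds 41422 lines for 40800 Ensembl identifiers, and 1 line was kept of each. Genes were filtered with filterByExpr (13938 left), scaled with TMM and fitted in edgeR 4.0.16 (R 4.3.3) as 1 quasi-likelihood model of 6 groups with robust dispersions; the median prior degrees of freedom were 10.2. The filter on any expression, which the study's methods describe, made the prior infinite and is an alternative, as is DESeq2 1.42.0. Standard errors are the log2 fold change over the root of the F statistic. The fit was also run on counts simulated with the same dispersion for every gene, which checks the calculation and not the spread of these libraries. Exact permutation tests used scipy 1.17.1. Positions came from GENCODE vM21 and promoters from RefSeq (GRCm38.p6).

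The members and the 18 gene lists were chosen with earlier results of these data known. Named genes are the members, at most the 3 with the smallest adjusted p past the threshold per list and comparison, the 3 most alike per member, and relatives fixed by name (Dnase2a, Caprin1, G3bp1, Ddx6, Celf1, Rbm24, Hsf4, Hif1a, Hspb1, Hrasls). Libraries of a group came from separate pools of lenses, so p-values measure the spread between pools. The titles give each group replicates 1 to 3 without saying what a number marks. Cryab titles also carry a further number, consecutive in same-numbered het and homo libraries, whose meaning is not given. After group means were removed, same-numbered Cryab WT and homo libraries correlated at 0.28, 0.18 and 0.16, all over 0.1, so the block is reported for that comparison; no other comparison met this.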

Additional observations from a re-analysis of the deposited data

Results flagged for a closer look

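Tdrd7 stood out because its homo effect differed between the lines by the test of the difference itself. The Cryab homo effect was 1.57 above the Cryaa homo effect on the log2 scale (SE 0.35, adjusted p = 0.013, edgeR's quasi-likelihood test), with all 3 Cryaa-R49C-homo libraries below all Cryaa WT libraries and the Cryab-R120G-homo libraries on both sides of their WT libraries. Line and age cannot be told apart in this difference.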

How the results depend on the processing

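The values were recomputed with all genes of at least 1 count, with library totals alone, with scaling that leaves out crystallins and Gm42418, with DESeq2, with edgeR's likelihood-ratio test, with the replicate number as a block, with only the 6 libraries compared, and without each library in turn; 2 further references for the fibre ratios, the fibre genes without Bfsp2 and the mean log2 CPM of the 14 fibre genes tested, were chosen after seeing the data. Of 648 such values for the fold changes of single members, 554 kept direction and side of the threshold, 18 lost the threshold and 12 gained it, and 64 changed sign, 17 of them with library totals alone. Of the sign changes 59 were past the threshold in neither fit, and the other 5 are given in the next paragraph. With only the 6 libraries compared, 1 member was called in Cryaa-R49C-homo against WT (Tdrd7) and 1 against het (Dnase2b); these fits also called fewer genes of all, 478 in place of 1364 and 294 in place of 1160. The line difference called 2 members with all genes of at least 1 count, 2 with DESeq2 and 2 with the likelihood-ratio test, Dnase2b beside Tdrd7 in each, and 1 to 2 without single libraries (2 without Cryaa-R49C-homo replicate 1); the cause was not tested. All-gene calls of that difference were 798, 626 and 1454 with these 3 in place of 406. The likelihood-ratio test called 2887 genes in Cryaa-R49C-homo against WT, 3052 against het and 257 in Cryab-R120G-homo against WT, and library totals alone called 2138 in the first.

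In 14-day against 2-day WT, library totals alone called 2 members, and Bnip3 (−0.53), Bnip3l (−0.64), Pla2g16 (−0.13), Tdrd7 (−0.13) and Caprin2 (−1.08) turned sign, with the median of all genes at −1.61. It called 11596 of all 13938 genes. The replicate block left the number of members called at 0 in Cryab-R120G-homo against WT, where the pairing held and all-gene calls went from 7 to 18. In the other comparisons the pairing did not meet the rule and what a number marks is not known. There the block gave 4 members in Cryaa-R49C-homo against WT, with Caprin2 in (adjusted p = 0.036) and Bnip3 out (adjusted p = 0.058), 4 against het, 5 in the WT comparison and 1 in the line difference. All-gene calls with the block were 1440, 1280, 3107 and 377 of 13938, in place of 1364, 1160, 3237 and 406. The number of members with any positive difference relative to the fibre genes, overlapping groups included, was 5 in Cryaa-R49C-homo against WT (Dnase2b overlapping) and 5 against het (Tdrd7 overlapping), 4 in each without Bfsp2 and 3 in each against the crystallins; in 14-day against 2-day WT it was 1, and 0 without Bfsp2. Of all genes 96.3%, 95.9% and 2.67% had a positive difference in these comparisons. Without Bfsp2 these shares were 95.4%, 93.4% and 1.64%, and against the crystallins they were 86.1% and 87.5% in the homo comparisons. With the mean log2 CPM of the fibre genes the number of members was 5, 5 and 1. Without single libraries it ranged from 2 to 6 in Cryab-R120G-homo against het, with 2 without homo replicate 2, the library in which Bfsp2 was at 341 CPM. With all libraries 79.2% of all genes had a positive difference there.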
